A study of Mus musculus with 24 samples.

Results

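Acute-phase genes, 10 of the 27958 genes tested, were followed in kidneys of megabladder (mgb-/-) mice. They were the 3 fibrinogen chains *Fga*, *Fgb* and *Fgg*, the 3 serum amyloid A genes *Saa1*, *Saa2* and *Saa3*, and the 4 plasma protein genes *Itih4*, *Ahsg*, *Serpina10* and *Hp*. Members were chosen by name, with earlier results of these data known. The paper had already reported *Fgg*, *Itih4*, *Serpina10* and *Saa2* as candidate injury markers in this series. Each member was read from the array probes whose transcript accession belongs to it. The array held 13 such probes, all of which passed the filter on dim probes. The acute-phase response is the change in secreted plasma proteins that follows injury or inflammation. It is best known from the hepatocyte, where interleukin-6 acts through STAT3, interleukin-1 acts through NF-kB and C/EBP factors join both. Fibrinogen is the precursor of the fibrin clot, and fibrinogen chains and serum amyloid A are also made by injured epithelia, the renal tubule among them.

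Whole kidneys of age-matched male mice, labelled young adult and, by the study's methods, shortly past weaning age, were compared, 6 of genotype mgb+/+ (control) and 18 of genotype mgb-/-, whose bladder muscle fails to form and whose urine flow is obstructed from before birth. By ultrasound the mgb-/- kidneys had been graded as mild (7), moderate (5) or severe (6) hydronephrosis. The labels name no treatment, and the mutation is carried by the whole animal rather than by 1 cell type. Each kidney was hybridized to its own single-dye array, on 3 slides that each carried 2 control and 6 mgb-/- kidneys. The grades were uneven over slides 1, 2 and 3, with 3, 2 and 2 mild, 2, 2 and 1 moderate and 1, 2 and 3 severe kidneys. Nothing in the labels ties a kidney to an animal, and the p-values therefore measure the spread between kidneys, which may not be separate animals.

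Levels are given as the log2 of the processed signal minus the 75th percentile of the array, so that 0 is that percentile. Levels of different genes come from different probes and were not set against each other. Between 55.4% and 70.7% of probes stood well above background on an array, and no spot was saturated. The lowest share was on the array of severe replicate 4, which had 660 outlier spots against 102 to 261 on the others. The summed leukocyte marker signal of that kidney, 6.52, was also the lowest of all kidneys. The tissue label held, since all 15 kidney markers stood well above background in every group and their summed signal lay between 1035 and 2826 times the 75th percentile on the 24 arrays. Some kidneys stood apart in ways that touch these genes. The summed signal of 9 adrenal gland markers was between 0.531 and 0.852 in the controls, but reached 266 in mild replicate 4 and 248 in moderate replicate 1. The adrenal marker *Cyp11a1* stood well above background in no control but in 7 mgb-/- kidneys, at 3.81 and 3.37 in those 2 and between -4.14 and -1.96 in mild replicates 2, 5, 6 and 7 and moderate replicate 3. Albumin (*Alb*), the most abundant secreted product of the hepatocyte, had levels between -3.25 and -2.54 in the controls and exceeded that range in 6 mgb-/- kidneys, which were mild replicates 2, 5, 6 and 7, moderate replicate 5 and severe replicate 3. Results are given with and without these kidneys.

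All 10 genes had higher mean levels in the 18 mgb-/- than in the 6 control kidneys, with log2 changes from 0.89 to 4.04 and a median of 2.24. The median over all genes tested was 0.01. *Serpina10*, *Itih4*, *Ahsg* and *Saa3* rose and no member fell, so that 4 of 10 members were called, where called means an adjusted p under 0.05 in limma with Benjamini-Hochberg adjustment and a change of at least 2-fold. Of all genes tested, 3.09% were called in this comparison and 1.82% were called higher. *Ahsg*, *Saa2* and *Saa3* stood well above background in no control, so they passed the filter on dim probes through mgb-/- kidneys alone. The count of 4 thus includes *Ahsg* and *Saa3*, which the filter admitted because of raised kidneys. It also includes *Serpina10* and *Itih4*, which the paper had already reported from these arrays, so the count is not an independent result. With only probes well above background on all 24 arrays, 2 members were called (*Itih4* and *Serpina10*). Unadjusted p-values were under 0.05 for 8 of the 10 members and for 29.0% of all genes. In these whole-kidney samples, a change in the number of cells of a type and a change in RNA per cell cannot be told apart.

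The calls depended on single kidneys. Leaving out control replicate 1, 2, 5 or 6, moderate replicate 1 or moderate replicate 4 left 2 members called (*Itih4* and *Serpina10*), and leaving out control replicate 3 or 4 left *Serpina10* alone. *Serpina10* and *Itih4* were also the 2 members called without mild replicate 4 and moderate replicate 1, the kidneys with high adrenal gland markers. Without the 6 kidneys whose *Alb* exceeded the controls, 1 member (*Serpina10*) was called, and the same held without the 7 kidneys with *Cyp11a1* and without the 5 kidneys with the liver marker *Mup3* well above background. The mgb-/- mean exceeded the control mean for all 10 genes within each of the 3 slides, by 1.45 to 5.27 on slide 1, by 0.30 to 6.39 on slide 2 and by 0.71 to 3.00 on slide 3.

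**Figure D1:**
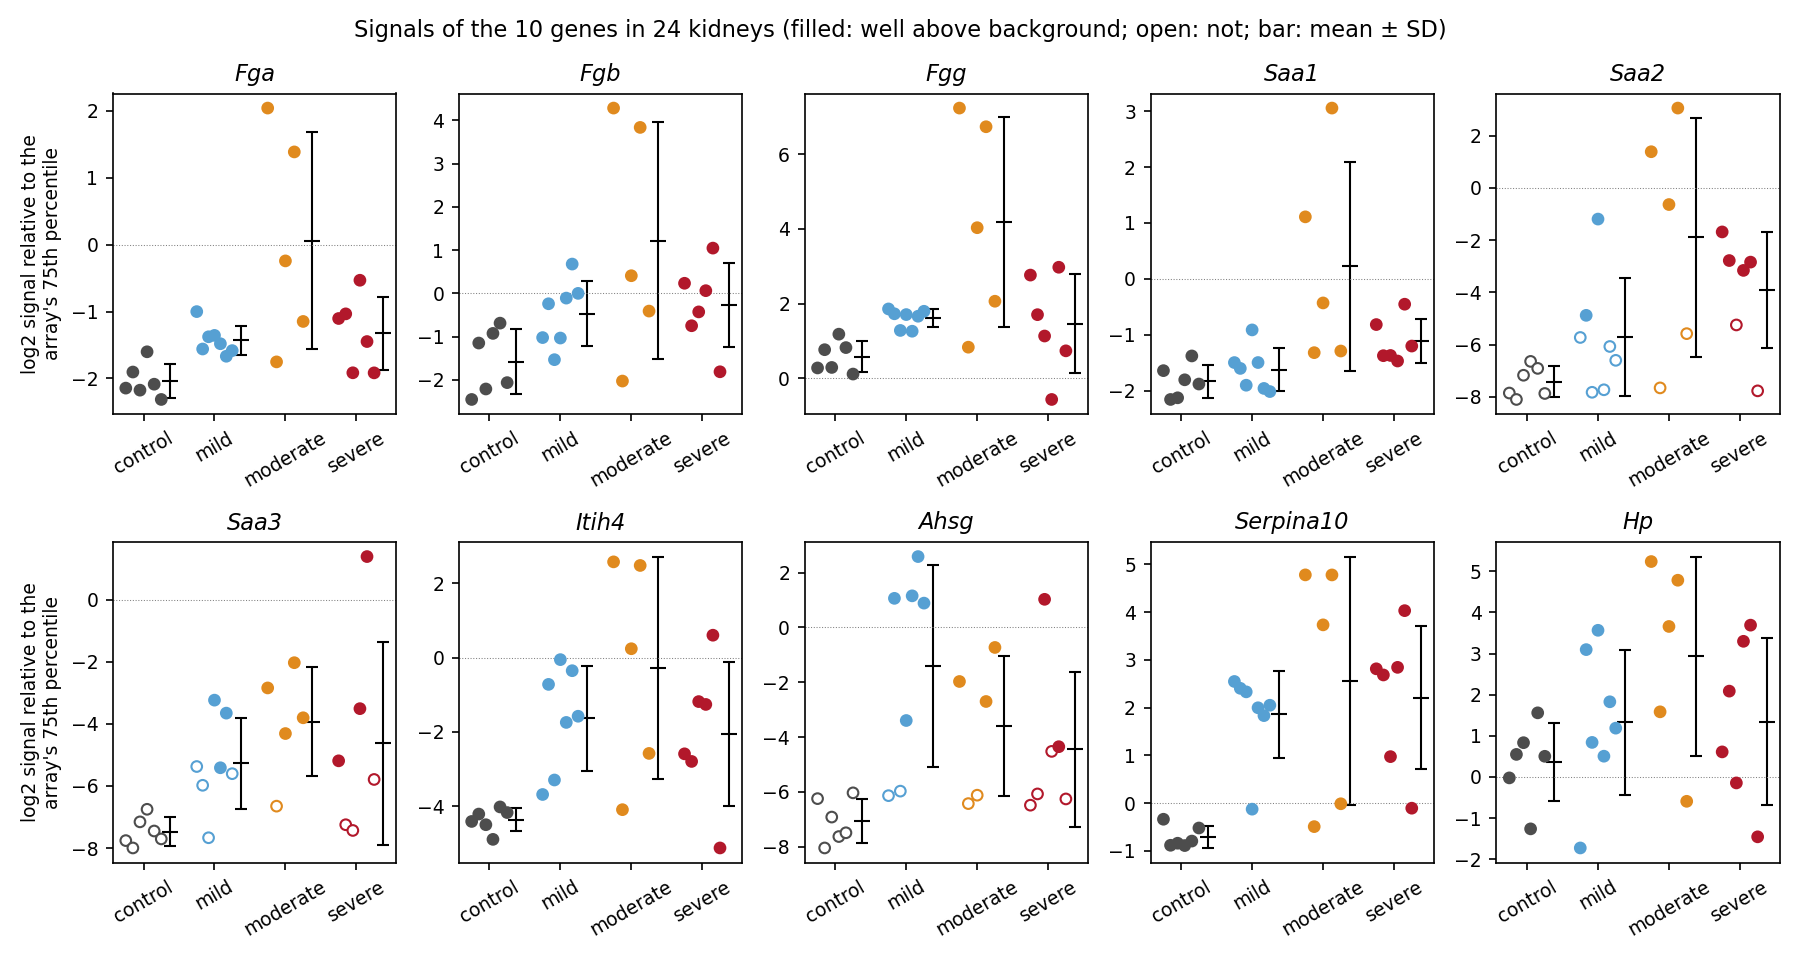
Log2 signal of each of the 10 genes relative to the 75th percentile of the array (vertical axis) in 6 control, 7 mild, 5 moderate and 6 severe kidneys. Each point is 1 kidney, open where the probe was not well above background, and the bar beside a group is its mean ± SD. Moderate replicates 1 and 4 carry the highest fibrinogen signals, and Saa2, Saa3 and Ahsg are open in all 6 controls.

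The fibrinogen chains assemble as pairs of each chain and are encoded side by side on chromosome 3. Their promoters are shown because all 3 chains were highest in the same 2 kidneys. The 150 bases before each RefSeq start (assembly GRCm38.p6) are given 5′ to 3′ on the strand of the gene, with capitals marking CTGGGA, the core of the interleukin-6 response element described for fibrinogen genes. *Fga* lies at chr3:83026003-83026152 on the plus strand, *Fgb* at chr3:83049864-83050013 on the minus strand and *Fgg* at chr3:83007574-83007723 on the plus strand.
Fga: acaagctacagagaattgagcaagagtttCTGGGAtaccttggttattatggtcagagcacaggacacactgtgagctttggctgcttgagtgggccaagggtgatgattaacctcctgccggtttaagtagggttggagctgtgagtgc
Fgb: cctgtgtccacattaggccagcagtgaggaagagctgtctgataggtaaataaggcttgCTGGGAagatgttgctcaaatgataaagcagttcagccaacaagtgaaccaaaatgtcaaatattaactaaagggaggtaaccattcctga
Fgg: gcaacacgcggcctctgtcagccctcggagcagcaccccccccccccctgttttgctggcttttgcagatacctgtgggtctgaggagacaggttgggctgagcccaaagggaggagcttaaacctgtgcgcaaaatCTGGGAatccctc

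The hexamer ended 116 bases before the start in *Fga*, 86 in *Fgb* and 8 in *Fgg*. Searched on both strands of the 250 bases before the start, it was found in 4 of the 8 members with a RefSeq promoter (the 3 chains and *Itih4*) and in 26.8% of 27025 promoters. The STAT palindrome TTCNNNGAA was found in *Fga*, *Fgb* and *Itih4* and in 7.18% of promoters, and it did not overlap the hexamer in these 3 genes. The C/EBP letters TTNNGNAA were found in 6 members (*Fga*, *Fgb*, *Saa1*, *Saa2*, *Saa3* and *Ahsg*) and in 36.9% of promoters, and the NF-kB letters, GGG and CC with 5 bases of any kind between them, in 4 members (*Fgg*, *Saa1*, *Saa2* and *Itih4*) and in 45.4%. A match describes these letters only and was not tested for binding.

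*Fgg*, the gamma chain, was well above background on all 24 arrays. Its level lay between 0.12 and 1.18 (median 0.53) in control kidneys, between 1.26 and 1.86 (median 1.71) in mild kidneys and between -0.56 and 2.97 (median 1.42) in severe kidneys. In the moderate kidneys, replicates 1 to 5, it was 7.23, 0.84, 4.03, 6.73 and 2.06. All 7 mild kidneys therefore lay above every control. Moderate replicate 2 and severe replicates 3 and 6 lay within the control range. Severe replicate 4, whose array had the most outlier spots, lay below it. Control kidneys averaged 0.58 ± 0.41 (SD, n = 6) and mgb-/- kidneys 2.27 ± 1.97 (SD, n = 18), a log2 change of 1.70 (SE 0.79, limma adjusted p = 0.153). In the moderate group the change was 3.60 (SE 0.83, limma adjusted p = 0.0381), or 12.1-fold, and *Fgg* was called there.

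*Fga*, the alpha chain, lay between -2.31 and -1.60 in control kidneys. In moderate replicates 1 to 5 its level was 2.04, -1.75, -0.24, 1.39 and -1.15. Moderate replicate 2 was again within the control range, and the other 4 moderate kidneys lay above it. *Fga* changed by 2.09 in the moderate group (SE 0.46, limma adjusted p = 0.0319), which is 4.27-fold, and was called. In mild kidneys, at -1.43 ± 0.22 (SD, n = 7), and in severe kidneys, at -1.32 ± 0.54 (SD, n = 6), it was not called against controls at -2.04 ± 0.25 (SD, n = 6). Both *Fga* probes gave similar mgb-/- differences, 1.05 for the brighter and 0.99 for the dimmer.

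*Fgb*, the beta chain, had the widest control range of the 3 chains, from -2.45 to -0.69. It reached 4.28 in moderate replicate 1 and 3.83 in moderate replicate 4, and the next highest value was 1.05 in severe replicate 5. Of the 18 mgb-/- kidneys, 12 lay above the highest control. The log2 change was 1.65 over all mgb-/- kidneys (SE 0.68, limma adjusted p = 0.110) and 2.80 in the moderate group (SE 0.83, limma adjusted p = 0.0861), so *Fgb* was called in neither. Without moderate replicates 1 and 4, an omission chosen after the data were seen, the mgb-/- changes were 0.72 for *Fga*, 1.15 for *Fgb* and 1.11 for *Fgg*, and the limma adjusted p was 0.0263, 0.0603 and 0.0875.

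*Saa1*, *Saa2* and *Saa3* encode serum amyloid A, an apolipoprotein of high density lipoprotein that rises steeply in plasma during inflammation, with *Saa3* made mainly outside the liver. The 3 genes lie in 1 cluster on chromosome 7. *Saa1* and *Saa2* are close copies, and their upstream sequences are shown for that reason. These bases lie before the start of the transcript. Their identity therefore does not measure how far 2 probes can tell the transcripts apart. Over 251 aligned columns of the 250-base upstream windows 238 were identical (94.8%), against 48.5% between *Saa1* and *Saa3* and 47.8% between *Saa2* and *Saa3*. The 200 bases before each RefSeq start (GRCm38.p6) follow, with capitals for bases that have no identical partner in the alignment of the pair. *Saa1* lies at chr7:46742981-46743180 on the minus strand and *Saa2* at chr7:46751633-46751832 on the plus strand.
Saa1: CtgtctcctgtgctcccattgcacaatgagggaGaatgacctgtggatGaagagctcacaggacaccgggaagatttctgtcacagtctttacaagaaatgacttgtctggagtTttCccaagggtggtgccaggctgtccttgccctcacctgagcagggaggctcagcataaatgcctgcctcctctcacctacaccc
Saa2: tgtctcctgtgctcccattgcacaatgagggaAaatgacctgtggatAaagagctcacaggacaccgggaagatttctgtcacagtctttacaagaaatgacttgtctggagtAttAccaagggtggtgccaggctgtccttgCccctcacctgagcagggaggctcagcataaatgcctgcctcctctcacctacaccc

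*Saa1* was well above background on all 24 arrays, at -2.15 to -1.38 in control kidneys. Its level was 1.11, -1.32, -0.43, 3.05 and -1.29 in moderate replicates 1 to 5. All 5 moderate kidneys and 5 of 6 severe kidneys lay above the highest control, but only 1 of 7 mild kidneys (replicate 4, at -0.91). *Saa1* was called in no comparison, with a log2 change of 0.89 over all mgb-/- kidneys (SE 0.50, limma adjusted p = 0.242) and 2.05 in the moderate group (SE 0.52, limma adjusted p = 0.0527).

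*Saa2* stood well above background in no control kidney but did so in 9 of 18 mgb-/- kidneys, 2 mild, 3 moderate and 4 severe. Measured levels were 1.39 in moderate replicate 1, -0.64 in moderate replicate 3, 3.06 in moderate replicate 4, -1.19 in mild replicate 4 and -1.69 in severe replicate 1. Moderate replicates 2 and 5 were not well above background. With controls raised to the lowest signal well above background on their array, the mgb-/- mean was 3.74-fold above them. The moderate mean was 16.8-fold above them. The fitted changes had limma adjusted p-values of 0.0862 and 0.0682, so neither was called. In the brighter group, kidneys not well above background kept their measured signal, so these folds are not strict lower bounds. The probe sequences were not used here, and cross-hybridization between the *Saa1* and *Saa2* probes was not tested.

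*Saa3* was likewise not well above background in any control and was so in 10 mgb-/- kidneys, 3 mild, 4 moderate and 3 severe. Severe replicate 5 had by far the highest level, 1.39, followed by -2.03 in moderate replicate 4 and -2.84 in moderate replicate 1. Severe replicate 5 also had the highest summed leukocyte marker signal of all kidneys, 105, against 32.3 to 47.7 in controls. Its summed kidney marker signal was the lowest, 1035, against 2125 to 2739 in controls. The part of leukocytes in the *Saa3* values was not tested. With controls raised as for *Saa2*, which again gives no strict lower bound, *Saa3* was 2.42-fold higher in mgb-/- kidneys. *Saa3* had a fitted log2 change of 2.79 (SE 0.89, limma adjusted p = 0.0409). It was no longer called without moderate replicates 1 and 4 (change 2.50, adjusted p = 0.0680), without the 2 kidneys with high adrenal gland markers (2.58, adjusted p = 0.0665) or without those with high *Alb* (3.10, adjusted p = 0.0543), and within the slides the difference was 2.87, 3.08 and 2.41.

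*Serpina10* encodes the protein Z-dependent protease inhibitor, which inactivates coagulation factor Xa. Its level lay between -0.89 and -0.34 (median -0.82) in control, between -0.12 and 2.55 (median 2.05) in mild and between -0.10 and 4.03 (median 2.75) in severe kidneys. In moderate replicates 1 to 5 it was 4.78, -0.49, 3.73, 4.78 and -0.01. Only moderate replicate 2 fell within the control range, and the other 17 mgb-/- kidneys lay above it. The mean rose from -0.71 ± 0.23 (SD, n = 6) to 2.17 ± 1.62 (SD, n = 18), a log2 change of 2.88 (SE 0.65, limma adjusted p = 0.00716) or 7.36-fold. Within the slides the difference was 3.40, 2.32 and 2.92, and the dimmer *Serpina10* probe gave 2.95. *Serpina10* was called in mgb-/- against control kidneys under all 41 alternatives tried, with limma adjusted p-values from 0.000156 to 0.0457.

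*Itih4* encodes a heavy chain related to the inter-alpha-trypsin inhibitors that is cleaved by kallikrein and is a positive acute-phase protein. Control kidneys lay between -4.89 and -4.02, and moderate replicates 1 to 5 had levels of 2.58, -4.09, 0.24, 2.48 and -2.58. All 7 mild kidneys lay above the controls, at -3.69 to -0.06, and so did 5 of 6 severe kidneys, while moderate replicate 2 was within the control range and severe replicate 6, at -5.12, was below it. *Itih4* rose by a log2 change of 2.97 (SE 0.84, limma adjusted p = 0.0235) or 7.83-fold. Within the slides the difference was 4.14, 2.50 and 2.27. The dimmer *Itih4* probe, which was well above background on 8 arrays, gave 2.02. Without the 6 kidneys with high *Alb* the change was 2.95 with an adjusted p of 0.0658, and without the 7 kidneys with *Cyp11a1* well above background it was 2.23 with an adjusted p of 0.144.

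*Hp* encodes haptoglobin, which binds free haemoglobin. Control kidneys spread from -1.26 to 1.56, the widest range among the members detected on every array, and 10 of 18 mgb-/- kidneys exceeded it. Moderate replicates 1 to 5 had levels of 5.24, 1.58, 3.66, 4.78 and -0.59, and mild replicate 1 (-1.73) and severe replicate 6 (-1.46) lay below all controls. *Hp* was called in no comparison, with a log2 change of 1.42 (SE 0.84, limma adjusted p = 0.275). *Hp* is also made by fat cells, and over the 18 mgb-/- kidneys its Spearman rho with 7 adipocyte markers was between 0.70 and 0.88 (*Fabp4* highest). For *Itih4* the rho was between 0.49 and 0.64 and for *Saa2* between 0.38 and 0.69, so *Hp* was not alone in this. The summed signal of these markers ranged from 31.6 to 98.0 in control, 14.9 to 324 in mild, 17.6 to 321 in moderate and 22.1 to 190 in severe kidneys, with *Lep* not well above background on any array, and their part in the *Hp* values was not tested.

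*Ahsg* encodes fetuin-A, a plasma inhibitor of calcification that is a negative acute-phase protein. It stood well above background in no control kidney, at -8.05 to -6.04, but did so in 5 of 7 mild, 3 of 5 moderate and 2 of 6 severe kidneys. Its levels were 1.06, 1.15, 2.59 and 0.89 in mild replicates 2, 5, 6 and 7 and 1.03 in severe replicate 3. Moderate replicates 1 to 5 had -1.97, -6.43, -6.12, -2.70 and -0.73. The mild group thus held the 3 highest kidneys together with 2 that were not above background. With controls raised as for *Saa2*, *Ahsg* was 7.58-fold higher in mgb-/- kidneys (fitted log2 change 4.04, SE 1.30, limma adjusted p = 0.0418). On the same basis it was 23.3-fold higher in mild kidneys (fitted log2 change 5.66, SE 1.46, limma adjusted p = 0.0244). These folds are not strict lower bounds either.

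The kidneys with high *Ahsg* were those with high *Alb*. *Alb* had levels of 1.07, 1.07, 2.67 and 1.12 in mild replicates 2, 5, 6 and 7, 1.17 in severe replicate 3 and -0.36 in moderate replicate 5, and these 6 kidneys also held the 6 highest *Ahsg* levels. Over the 18 mgb-/- kidneys the Spearman rho of *Ahsg* with *Alb* was 0.79, and with *Fabp1*, another liver marker, 0.85. Over the 16 measured liver markers it had a median of 0.52, from -0.17 to 0.85. The summed signal of the 20 liver markers was 8.99 to 20.3 in control, 9.03 to 31.7 in mild, 9.16 to 19.8 in moderate and 14.5 to 25.0 in severe kidneys. *Cyp7a1* and *C9* were not well above background on any array, 15 of the 20 were so in at least 1 control and 18 of 20 in at least 1 mild kidney. Without these 6 kidneys the mgb-/- change in *Ahsg* was 2.03 (limma adjusted p = 0.0564). The mild group then held 3 kidneys, and only 6 of all genes tested, no member among them, were called in it. *Ahsg* was also not called without moderate replicates 1 and 4 (change 3.95, adjusted p = 0.0659) or without the 2 kidneys with high adrenal gland markers (4.00, adjusted p = 0.0603). The part of liver transcripts in the *Ahsg* values was not tested.

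The other 9 genes did not share the order of *Alb*. Their Spearman rho with *Alb* over the 18 mgb-/- kidneys lay between -0.50 (*Serpina10*) and 0.17 (*Itih4*). In moderate replicates 1, 3 and 4, the 3 kidneys with the most *Fgg*, *Alb* was at -3.56, -5.53 (not well above background) and -3.37, below every control. Without the 6 kidneys with high *Alb* the mgb-/- change was 2.03 for *Fgg*, 4.36 for *Saa2* and 3.19 for *Serpina10*, larger than with them. A different liver marker, *Mup3*, was well above background in 5 kidneys, which were moderate replicates 1, 3 and 4, mild replicate 4 and severe replicate 3, at -2.20, -4.06, -2.93, -3.23 and -3.06. Among liver markers it had the highest rho with *Itih4* (0.77), *Saa2* (0.57) and *Hp* (0.55). Over the 16 measured liver markers the median rho was 0.07 for *Itih4*, -0.11 for *Saa2* and -0.12 for *Hp*. The lowest was -0.35, -0.61 and -0.48 in the same order. Without these 5 kidneys the change was 0.97 for *Fgg*, 2.02 for *Saa2*, 2.12 for *Itih4* (limma adjusted p = 0.0520) and 2.63 for *Serpina10* (limma adjusted p = 0.00948). The part of liver transcripts in these 9 genes was not tested.

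**Figure D2:**
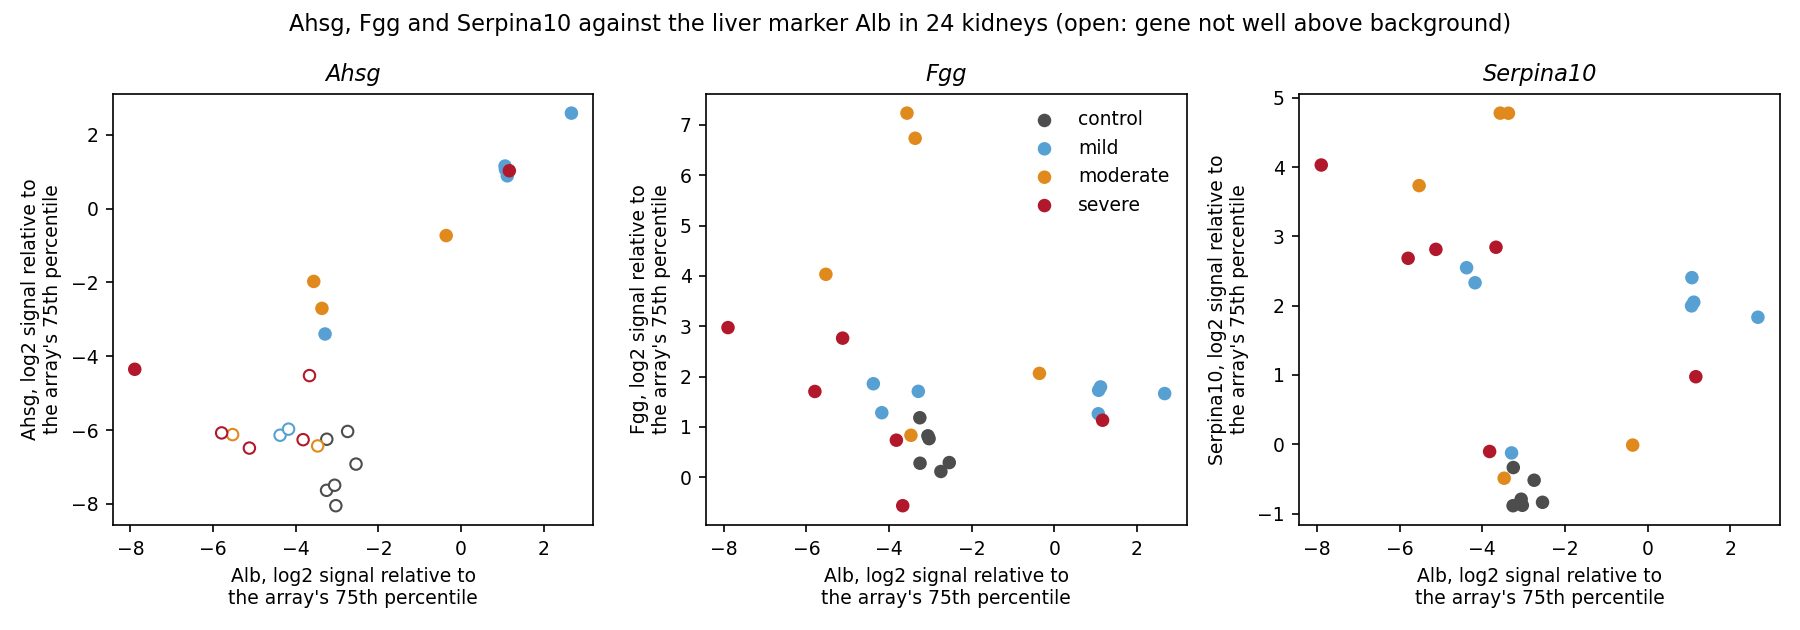
Level of Ahsg, Fgg and Serpina10 (vertical axes) against the level of the liver marker Alb (horizontal axes) in 24 kidneys, all as log2 signal relative to the 75th percentile of the array. Each point is 1 kidney coloured by group, open where the gene on the vertical axis was not well above background. The 6 kidneys with Alb from -0.36 to 2.67 hold the 6 highest Ahsg values, while the 3 highest Fgg values (7.23, 6.73 and 4.03) lie where Alb is -3.56, -3.37 and -5.53.

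Among mgb-/- kidneys the members were high in the same few kidneys. Moderate replicate 1 had the highest level of 6 members, moderate replicate 4 of 2, severe replicate 5 of 1 (*Saa3*) and mild replicate 6 of 1 (*Ahsg*). Moderate replicates 1 and 4 were each among the 4 highest for 9 members, and moderate replicate 3 and severe replicate 5 for 7 members each. All 10 members exceeded the highest control in moderate replicates 1 and 4 and severe replicate 5, but only 2 did so in moderate replicate 2 (*Saa1* and *Hp*) and 2 in severe replicate 6 (*Saa1* and *Serpina10*), counting probes well above background. The moderate group thus held both the kidneys with the highest levels and 1 of the 2 with the fewest members above the controls. Moderate replicates 1 and 4 were both on slide 1, replicates 2 and 5 on slide 2 and replicate 3 on slide 3. Within this group, kidney and slide cannot be told apart.

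Moderate replicate 1 was also 1 of the 2 kidneys with the highest adrenal gland markers, and moderate replicate 3 was 1 of the 5 others with *Cyp11a1* well above background. The other, mild replicate 4, had fibrinogen levels of -1.36 (*Fga*), -1.03 (*Fgb*) and 1.71 (*Fgg*), close to those of the other mild kidneys, and *Saa2* (-1.19), *Itih4* (-0.06), *Saa3* (-3.23) and *Hp* (3.57) at the top of the mild group. Moderate replicate 4, whose adrenal marker sum was 1.14, had fibrinogen levels near those of moderate replicate 1. Over the 18 mgb-/- kidneys the median Spearman rho with 8 adrenal gland markers ran from 0.0052 (*Saa1*) to 0.54 (*Itih4*). The highest single value was 0.81, between *Itih4* and *Dbh*. The part of adrenal tissue in the values was not tested. *Lcn2*, an injury marker of the tubule that was added after its values were seen, was likewise highest in moderate replicates 1, 3 and 4 and severe replicate 5, at 6.59, 4.29, 5.30 and 5.48, against -1.34 to -0.35 in control kidneys. The paper drew *Fgg*, *Itih4*, *Serpina10* and *Saa2* from its contrast of high-*Lcn2* with low-*Lcn2* kidneys of this series. For these members the likeness to *Lcn2* is therefore no separate result.

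Spearman rho between members over the 18 mgb-/- kidneys described the same pattern. The 36 pairs without *Ahsg* had rho from 0.36 to 0.80 with a median of 0.60, and the 9 pairs with *Ahsg* had rho from -0.35 to 0.50 with a median of 0.02. The highest value, 0.80, was between *Itih4* and *Hp*. Much of the linear relation between the chains rested on moderate replicates 1 and 4, as Pearson's r between *Fga* and *Fgg* fell from 0.86 to 0.32 when the 2 kidneys farthest from the median *Fga* level were left out. All points share the scaling of their array.

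**Figure D3:**
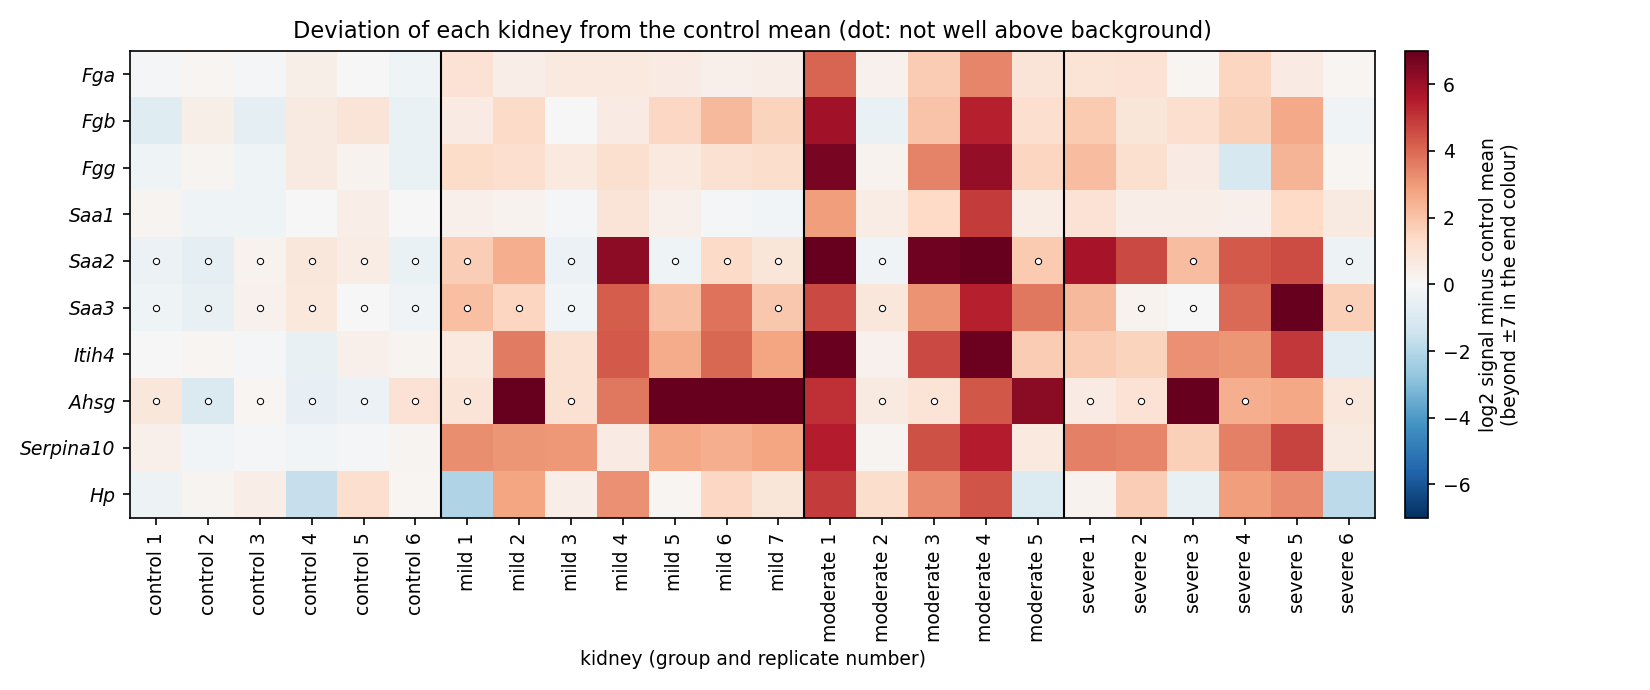
Log2 signal of each member (rows) in each of the 24 kidneys (columns) minus the mean of the 6 controls, from blue (lower) over white to red (higher), with values beyond 7 in the end colour. A dot marks a probe not well above background. Moderate replicates 1 and 4 are red for all members, moderate replicate 2 is close to white, and Ahsg is darkest in mild replicates 2, 5, 6 and 7 and severe replicate 3.

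Each grade was then compared with the same 6 controls in a 4-group fit. In mild kidneys 1 of 10 members was called (*Ahsg*), when 2.21% of all genes were called and 1.15% called higher. *Ahsg* had passed the filter on dim probes through mgb-/- kidneys alone. In moderate kidneys 2 were called (*Fga* and *Fgg*), when 0.730% of all genes were called and 0.529% called higher, and in severe kidneys 1 was called (*Serpina10*), when 4.71% were called and 2.99% called higher. No member was called lower. All 10 moderate changes had an unadjusted p under 0.05, against 18.4% of all genes. These 10 include *Saa2*, *Saa3* and *Ahsg*, which passed the filter on dim probes through mgb-/- kidneys alone. Most members were high together in moderate replicates 1 and 4, so the 10 p-values are not separate results. In mild kidneys 3 members had an unadjusted p under 0.05, against 21.4% of all genes, and in severe kidneys 4, against 31.8%, shares near the background. The median change over the members was 1.41 for mild, 3.37 for moderate and 1.81 for severe grade. The 3 comparisons share their controls.

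Members with changes near the threshold in several grades were *Serpina10* and *Itih4*. *Serpina10* had log2 changes of 2.57 (SE 0.79, limma adjusted p = 0.0542) in mild, 3.27 (SE 0.85, limma adjusted p = 0.0577) in moderate and 2.92 (SE 0.82, limma adjusted p = 0.0214) in severe kidneys. *Itih4* had changes of 2.73 (adjusted p = 0.0976), 4.09 (adjusted p = 0.0556) and 2.31 (adjusted p = 0.119) in the same order, and was not called. The moderate counts rested on single kidneys. None was called without moderate replicate 1, 3 or 4 or without control replicate 1, 2, 3, 4 or 6, and 1 (*Fga*) without control replicate 5. In contrast, 8 were called without moderate replicate 2, 7 without moderate replicate 5 and 6 without severe replicate 5 or 6. Calls over all genes moved too, from 148 higher and 56 lower to 10 and 4 without moderate replicate 1, 368 and 263 without moderate replicate 2 and 459 and 179 without moderate replicate 5.

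The *Ahsg* call in mild kidneys was lost without control replicate 2, 3 or 4 or mild replicate 2, 5, 6 or 7. With mild replicate 4, moderate replicate 1, 2, 4 or 5 or severe replicate 5 or 6 left out, the mild count was 2 (*Ahsg* and *Serpina10*). In severe kidneys no member was called without severe replicate 5, while 2 were called without severe replicate 3 (*Saa3* and *Serpina10*) and 3 without severe replicate 6 (*Saa2*, *Itih4* and *Serpina10*).

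**Figure D4:**
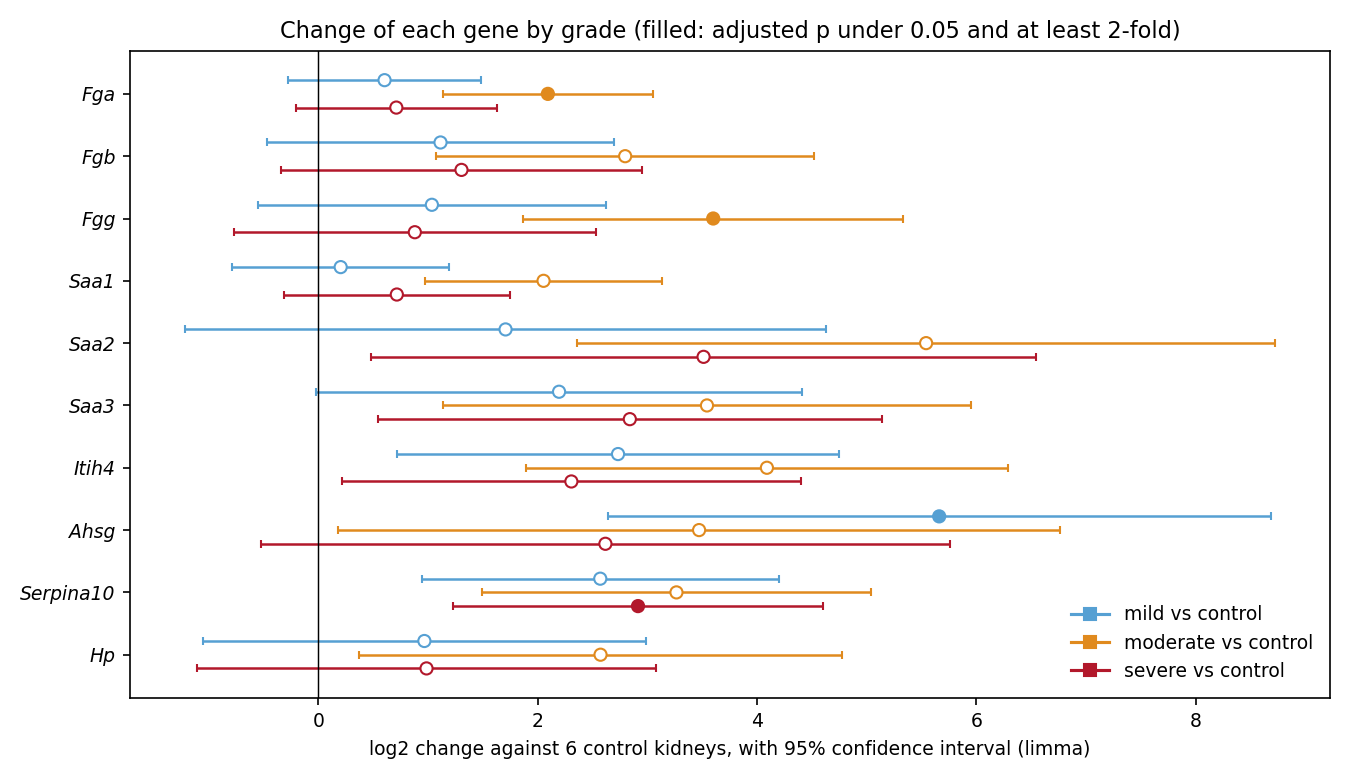
Log2 change of each member in mild, moderate and severe kidneys against 6 controls (horizontal axis) with its 95% confidence interval from limma, filled where called. Changes in the moderate group run from 2.05 for Saa1 to 5.54 for Saa2, and 2 of them are filled (Fga and Fgg). Their intervals lie above 0 for all 10 members, with the lowest end at 0.18 for Ahsg.

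Between grades no member was called by limma. In severe against mild kidneys 0.461% of all genes were called (0.454% higher and 0.00715% lower) and the members' median change was 0.15. *Ahsg* had the only unadjusted p under 0.05 there, with a change of -3.04 (95% interval -6.07 to -0.020, adjusted p = 0.449). Without the 7 kidneys with *Cyp11a1* well above background the change in *Ahsg* was 1.61. That omission removed every mild kidney with *Ahsg* well above background and left mild replicates 1 and 3. The changed sign therefore followed from the choice of kidneys. In moderate against mild kidneys no gene of 27958 was called, and 5 members (*Fga*, *Fgb*, *Fgg*, *Saa1* and *Saa2*) had an unadjusted p under 0.05. The *Fgg* difference of moderate from mild kidneys was 2.56 (95% interval 0.89 to 4.24, adjusted p = 0.555). In severe against moderate kidneys 0.00715% of genes were called, 0.00358% higher and 0.00358% lower, and *Fga*, *Fgg* and *Saa1* had an unadjusted p under 0.05, with changes of -1.38, -2.72 and -1.34.

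Other genes of the response, from lists written by hand, were read in mgb-/- against control kidneys. In this comparison 1.82% of all genes were called higher and 1.26% lower, the shares to set beside each count below. Of 20 measured further positive acute-phase genes 6 rose and none fell, with a median log2 change of 1.56. The 4 with the lowest p were *Fgl1*, a fibrinogen-like hepatokine (1.38, limma adjusted p = 0.0116), *C3*, the central complement protein (2.02, adjusted p = 0.0162), *Hpx*, the haem carrier hemopexin (1.86, adjusted p = 0.0178), and *Cp*, the copper carrier ceruloplasmin (1.73, adjusted p = 0.0189). *Serpina3m* and *Il1r2*, named after their values were seen, were the other two. For *C3*, *Hpx* and *Cp* every one of the 18 mgb-/- kidneys exceeded the control mean.

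Of 10 measured negative acute-phase genes, which fall in liver during inflammation, 4 rose and none passed the test as lower, with a median of 1.05. Those that rose were *Serpina6*, the corticosteroid-binding globulin (4.31, limma adjusted p = 0.000816), *Rbp4*, the retinol carrier (1.52, adjusted p = 0.00741), *Fetub*, a relative of *Ahsg* (1.48, adjusted p = 0.000315), and *Trf*, transferrin (1.16, adjusted p = 0.00308). *Fetub* exceeded the control mean in 18 of 18 mgb-/- kidneys and was well above background on all 24 arrays, unlike its neighbour *Ahsg*.

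Of 26 measured cytokines, receptors and factors of the response 6 rose and none fell, with a median of 0.33. *Cebpd* (1.97, limma adjusted p = 1.88e-05) and *Cebpb* (1.58, adjusted p = 7.41e-05), the C/EBP factors of the acute phase, and *Nfkbia* (1.35, adjusted p = 0.00186), the NF-kB inhibitor, were higher than the control mean in all 18 mgb-/- kidneys. *Il6ra*, the interleukin-6 receptor, rose by 1.03 (adjusted p = 0.00319), and *Il1b* and *Osmr*, named after their values were seen, rose as well. In the grades *Cebpb* and *Cebpd* were called higher in mild, moderate and severe kidneys alike.

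Among 25 genes of coagulation and fibrinolysis 3 rose and 2 fell, with a median of 0.20. Among them *F13a1*, which crosslinks fibrin, rose by 1.93 (limma adjusted p = 0.0298) and *Plaur*, the urokinase receptor, by 1.18 (adjusted p = 0.0331). *Proz*, which encodes protein Z, the cofactor of the *Serpina10* product, fell by 1.59 (adjusted p = 0.0099) and was below the control mean in all 18 mgb-/- kidneys. *Serpinf2*, the inhibitor of plasmin, named after its values were seen, fell by 1.08 (adjusted p = 0.035).

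Of 15 measured receptors and binding partners *Tlr2* rose (1.06, limma adjusted p = 0.0151) and *Cd36* fell (-2.37, adjusted p = 0.00435), while *Ager* (0.99, adjusted p = 0.00423) and *Lrp1* (0.75, adjusted p = 0.0177) stayed under 2-fold. Of the 5 other genes of the inter-alpha-trypsin inhibitor family *Itih2* fell (-2.41, adjusted p = 0.00899), and *Ambp* (0.97, adjusted p = 0.0296), *Itih1* (-0.67, adjusted p = 0.0941) and *Itih3* (0.28, adjusted p = 0.599) were not called. Of the marker lists, 1 of 16 liver markers was higher (*Uox*, 2.68) and 1 lower (*Apob*, -1.41), 5 of 10 urothelium markers were higher, and none was called among 13 leukocyte, 8 adrenal gland, 7 adipocyte and 15 kidney markers. *Asgr1* (0.69) and *Fabp1* (1.72) were the next liver markers by p. The urothelium markers with the lowest p were *Krt19* (2.34), *Grhl3* (2.15), *Krt14* (2.10) and *Sprr1a* (2.25), and in severe against mild kidneys 9 of the 10 were called higher (*Upk1a*, *Upk1b*, *Upk2*, *Upk3a*, *Krt14*, *Krt19*, *Foxa1*, *Grhl3* and *Sprr1a*). Of the lists with no call, the lowest p-values belonged to *Csf1r* (-0.24), *Nkg7* (-0.27), *Lyz2* (0.96) and *Ptprc* (0.38) among leukocyte markers and to *Cyp11b1* (3.36), *Cyp11a1* (2.99), *Mc2r* (1.82) and *Cyp21a1* (2.32) among adrenal gland markers. They belonged to *Fabp4* (0.38), *Retn* (0.36), *Cfd* (0.50) and *Adipoq* (-0.39) among adipocyte markers and to *Aqp2* (0.91), *Slc22a6* (-0.96), *Slc34a1* (-0.46) and *Cdh16* (-0.17) among kidney markers. No gene called in these lists changed sign under the 4 other normalizations, but counts moved. Of the 20 further positive acute-phase genes, 6 were called with quantile normalization and with median scaling. The authors' table gave 3 (median change 0.70) and normexp 2 (median change 0.59).

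**Figure D5:**
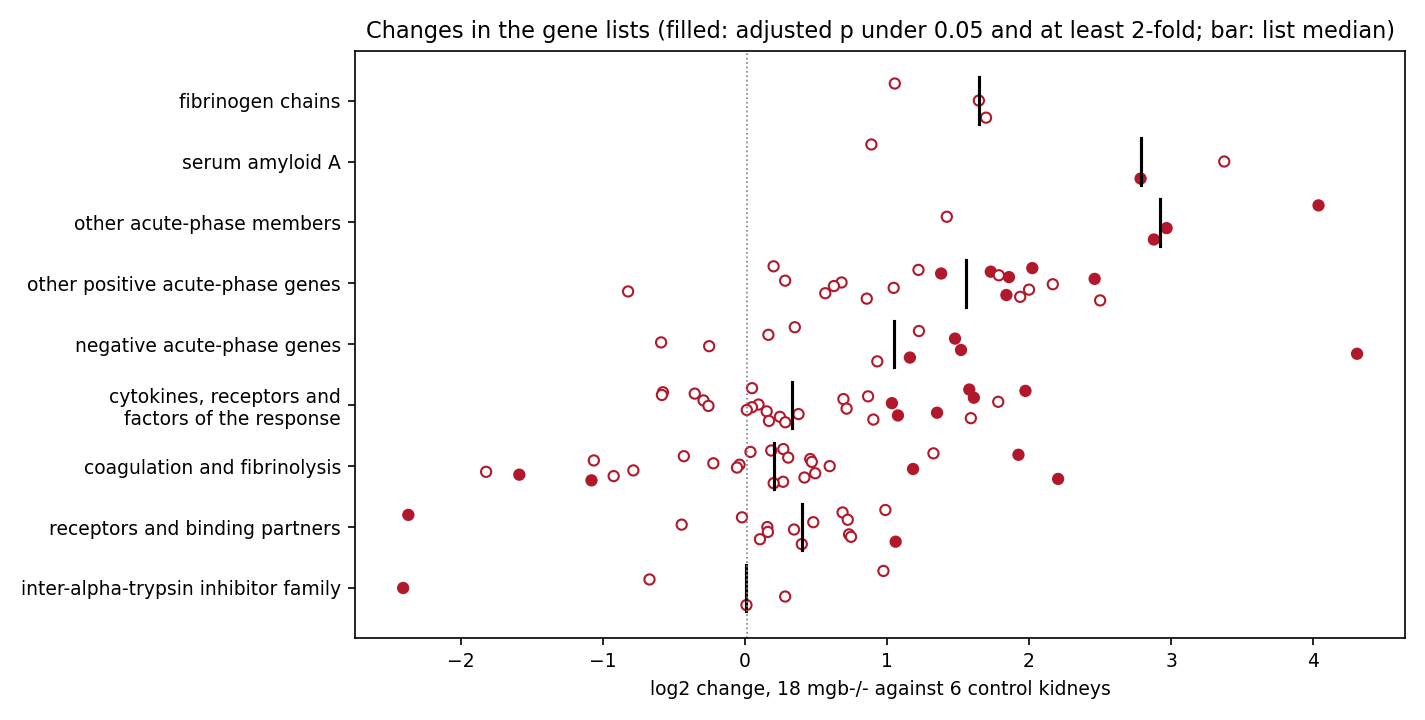
Log2 change in 18 mgb-/- against 6 control kidneys (horizontal axis) for each measured gene of 9 lists (rows), filled where called, with a bar at the list median and a dotted line at the median of all genes, 0.01. The list medians are 1.65 for the fibrinogen chains, 2.79 for serum amyloid A, 2.92 for the other members, 1.56 for other positive and 1.05 for negative acute-phase genes.

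The members lie on 6 chromosomes (3, 7, 8, 12, 14 and 16), and the 3 tested genes on either side of each, in RefSeq order, gave 37 distinct neighbours that are no members. Of these 4 were called higher (*Tlr2*, *Tph1*, *Fetub* and *Serpina6*) and none lower, with a median change of 0.00. Of all genes, 1.82% were called higher and 1.26% lower. *Plrg1*, which lies beside *Fgb*, had a change of -0.22 (limma adjusted p = 0.0718), and *Saa4*, between *Saa3* and *Saa1*, had -0.82 (adjusted p = 0.267). *Serpina6* lies directly beside *Serpina10*, and its Spearman rho with it over the 18 mgb-/- kidneys was 0.39.

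Likeness over the 18 mgb-/- kidneys was read among 24386 genes well above background on at least 12 of them, for 1 member of each kind. *Serpina10* had the closest matches, *Trpv6* (Spearman rho 0.96), *Spp1* (0.96), *Tpbg* (0.96), *Cd24a* (0.95) and *Osmr* (0.95). Of these, *Trpv6* changed by 1.35 (limma adjusted p = 0.0120) and *Spp1*, osteopontin, by 1.06 (adjusted p = 0.0442) in mgb-/- against control kidneys. *Fgg* was most like *Paox* (0.89), *Rhoq* (0.88), *Flt3* (0.88), a transcript without a gene name here and *Nfkb1* (0.83). *Saa1* was most like *Ypel2* (0.84) and *Sntg2* (0.82), beside 3 probes without a gene name. These values describe ranks in 18 kidneys that share their array scaling, and no p is given.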

How the data were processed

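RNA of 24 whole mouse kidneys was hybridized to single-dye Agilent arrays, and the authors deposited 1 scanner file per kidney and 1 normalized table. Per the file headers and the submitters' processing notes, the authors' intensity values came from Agilent Feature Extraction 10.10, which subtracts background and detrends each array without scaling between arrays. The authors' table, in intensity units, was normalized by a method not given in the sources used here. From the scanner files, log2 of the processed signal minus the 75th percentile of the array was computed here. Control spots were left out, and 38834 of 55681 probes were kept, those well above background on at least 5 arrays. RefSeq accessions named 26762 of the 55681 probes. The brightest probe stood for a gene. Values missing on an array (324 genes) were left out of the fit of that gene.

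Genes were tested with limma 3.58.1 in R 4.3.3, in a fit of 2 groups for mgb-/- against control and of 4 groups for the grades, with Benjamini-Hochberg adjustment over 27958 genes. A gene with an adjusted p under 0.05 and at least a 2-fold change was called. Confidence intervals used the moderated degrees of freedom of limma. The script was tested on simulated data. For a probe not well above background in any control, the fold compares the mean of the brighter group with a raised control mean. Each control array entered that mean at the higher of the lowest signal among probes well above background and the probe's own. Signals not well above background in the brighter group were kept as measured, so the fold is not a strict lower bound. Correlations and figures were made with Python 3.11 and matplotlib 3.10.9.

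Named were all 10 members, the 4 genes with the lowest p of each other list, list genes called between grades, the 5 genes most like 1 member of each kind and the 3 tested neighbours on either side. A gene that this rule names is not reported here. The members and lists were chosen with earlier results of these data known. Alternatives covered scaling, background correction (normexp with offset 50 on median signals, since mean signals were not used here), the authors' table, probe filters, probes of a gene, slide and replicate blocks, array weights, thresholds, the groups in the fit and leaving out kidneys. The number of arrays limits the precision.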

Additional observations from a re-analysis of the deposited data

Results flagged for a closer look

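In *Ahsg*, severe replicate 3 stood apart from the other severe kidneys with a level of 1.03, where the next highest was -4.35. In *Serpina10*, mild replicate 4 stood apart from the other mild kidneys with a level of -0.12, where the next lowest was 1.83. Each was singled out because its gap to the nearest kidney took up more of the range of its group than Dixon's 95% critical value allows. Chance gives about 1 such kidney in 20 groups, and 2 were found in 40 groups.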

How the results depend on the processing

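In mgb-/- against control kidneys no member changed direction under any of the alternatives, and *Serpina10* kept an adjusted p under 0.05 in limma in 41 of 41, *Itih4* in 34 of 41, *Saa3* in 19 of 40 and *Ahsg* in 17 of 40. Adjusted p ranged from 0.000548 to 0.144 for *Itih4*, from 0.00742 to 0.304 for *Saa3* and from 0.0018 to 0.148 for *Ahsg*. In place of 4 members, 2 were called with quantile normalization, scaling by the median, the authors' table, no filter on dim probes and probes well above background on all 24 arrays, 1 with normexp, and 1 to 4 when 1 kidney was left out, while 6 were called with array quality weights (*Fgb* and *Fgg* among them, adjusted p = 0.0101 and 0.0333) and 5 at an adjusted p under 0.1. Scaling by the median moved the median change of all genes from 0.01 to -0.14 and the genes called from 510 higher and 353 lower to 317 higher and 502 lower. Genes called were 222 higher and 196 lower with normexp and 261 higher and 236 lower in the authors' table. The cause of these shifts was not tested.

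In place of 1 member in mild kidneys, 2 were called with the mean of the probes of a gene, 5 with array quality weights, 5 when only the groups compared were fitted, 3 at an adjusted p under 0.1 and 0 to 2 without 1 kidney. In place of 2 in moderate kidneys, 0 were called with median scaling, 1 without a filter, 5 with probes above background on all arrays, 9 with array weights, 1 with only the groups compared, 7 at an adjusted p under 0.1 and 0 to 8 without 1 kidney. In place of 1 in severe kidneys, 2 were called with array weights, 2 with only the groups compared, 2 at an adjusted p under 0.1 and 0 to 3 without 1 kidney. With array weights all-gene calls rose as well, in moderate kidneys from 148 higher and 56 lower to 896 and 580, and in mild kidneys from 321 and 297 to 619 and 545. With array weights 4 were called in moderate against mild and 2 in severe against moderate kidneys, in place of 0.

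Omissions added after the data were seen gave, without moderate replicates 1 and 4, 2 members for mgb-/-, 3 for mild, 0 for moderate and 2 for severe kidneys. Without the kidneys with high adrenal gland markers they gave 2, 2 and 0 in mgb-/-, mild and moderate kidneys, and without those with high *Alb* 1, 0 and 1. Without those with *Cyp11a1* well above background they gave 1, 0 and 0, where 4 genes in all were called higher in mild and 2 in moderate kidneys, and without those with *Mup3* well above background 1, 3 and 0, with 3 in severe kidneys.

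Replicate numbers did not pair the kidneys. The correlation of deviations over 33 same-numbered pairs ran from -0.55 to 0.65, and 6 of 24 kidneys correlated best with their own number. With the replicate number as a block 2 members were called in mgb-/- (*Saa3* and *Serpina10*), 0 in mild and 0 in moderate kidneys.

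Uncalled differences of severe from mild kidneys changed sign. Leaving out 1 kidney gave -0.051 to 0.23 for *Fga* (lowest without severe replicate 4), -0.073 to 0.50 for *Fgb* (lowest without severe replicate 5), -0.46 to 0.25 for *Fgg* (highest without severe replicate 4) and -0.56 to 1.21 for *Saa3* (lowest without severe replicate 5). It gave -0.96 to 0.19 for *Itih4* (highest without severe replicate 6), -0.021 to 0.81 for *Serpina10* (lowest without severe replicate 5) and -0.49 to 0.58 for *Hp*, which was negative without mild replicate 1, 3, 5 or 7 or severe replicate 2, 4 or 5. With array weights *Fgb* was -0.17, *Saa3* -1.03, *Serpina10* -0.11 and *Hp* -0.61. Without the kidneys with *Cyp11a1* well above background, which left 2 mild kidneys, *Fga* was -0.14, *Itih4* 1.43, *Ahsg* 1.61 and *Serpina10* -0.23. In those 2 mild kidneys *Ahsg* was not well above background. *Fgg* was 0.18 with slide as a block, *Itih4* 0.11 without the kidneys with high *Alb*, and *Hp* -0.00399 with the replicate block. Levels of *Saa2*, *Saa3* and *Ahsg* in control kidneys and in some mgb-/- kidneys were not well above background, so the size of their changes is uncertain.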
